A study of Mus musculus with 10 samples.

Results

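The genes described here encode sensors of RNA and of Z-form nucleic acid, with the adaptor and the enzymes that act beside them. They are Ddx58, Ifih1, Dhx58, Mavs, Zbp1, Adar and Eif2ak2, given as a list of symbols and matched to the deposited Entrez identifiers by symbol. All 7 were found among the 36528 gene identifiers, and all 7 passed the low count filter that left 13588 tested genes. They were measured by sequencing of polyadenylated RNA from purified tumour-associated macrophages of C57Bl/6 mice that carried tumours of MC-38, a colon carcinoma line of the mouse. For 5 libraries the mice were given anti-MerTK, which binds a receptor tyrosine kinase through which macrophages engulf dying cells. In the other 5 libraries, the comparison group, they were given anti-gp120, directed at the HIV envelope and so at nothing mouse tissue makes. All macrophages were profiled 24 h after treatment. The labels do not say how the macrophages were purified, how old the mice were, or whether each library came from its own mouse, so the spread behind each p-value is that between these libraries and may be technical.

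RIG-I (gene Ddx58, now also called Rigi) and MDA5 (Ifih1) are helicases that bind double-stranded RNA in the cytosol and, through their CARD domains, switch on the mitochondrial adaptor MAVS, which leads to transcription of type I interferon genes. LGP2 (Dhx58) is the related helicase without CARD domains and modulates the other two. ZBP1 binds left-handed Z-RNA and Z-DNA and can start necroptosis through RIPK3 and MLKL. ADAR1 (Adar) carries the same kind of Z-binding domain, edits adenosines in double-stranded RNA and so keeps cellular RNA from being sensed, while PKR (Eif2ak2) is a kinase that stops translation by phosphorylating eIF2 alpha when it binds double-stranded RNA. Most of these genes are themselves induced by interferon in macrophages, through factors such as IRF9.

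Because interferon factors bind repeated GAAA elements, the promoter windows of the 7 genes were read first. RefSeq's table for GRCm38.p6, with 250 bases before and 50 bases from each start site, held 7 windows for 5 of the genes, 3 of them for Adar. Dhx58 and Zbp1 are only named here. The letters GAAANNGAAA and GAAANGAAA were searched on both strands. The second, closer spacing was added after the sequences had been read. The first pattern alone was found in 3 of the 7 windows, for Ddx58, Ifih1 and Eif2ak2, and Adar matched only the second. A match to either pattern was found in 4 of the 7 windows, 1 window each for Ddx58, Ifih1, Eif2ak2 and Adar, and in no window of Mavs or of the other 2 Adar starts. Over all 32817 windows in the table, 3.43% held GAAANNGAAA, 3.17% held GAAANGAAA and 6.26% held either. The stretches from 100 bases before the start to base 50 of the transcript are shown 5′ to 3′ on the strand of the gene, with the matches in capitals, to set the 4 genes with a match beside Mavs, which has none.
Ddx58 (chr4:40239776-40239925, minus strand): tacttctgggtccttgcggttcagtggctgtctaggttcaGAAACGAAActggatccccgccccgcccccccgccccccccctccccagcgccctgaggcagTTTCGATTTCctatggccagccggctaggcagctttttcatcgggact
Ifih1 (chr2:62646206-62646355, minus strand): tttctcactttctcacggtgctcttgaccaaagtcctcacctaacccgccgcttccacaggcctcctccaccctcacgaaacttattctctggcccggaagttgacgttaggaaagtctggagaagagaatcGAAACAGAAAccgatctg
Adar, the most downstream of its 3 starts (chr3:89730618-89730767, plus strand): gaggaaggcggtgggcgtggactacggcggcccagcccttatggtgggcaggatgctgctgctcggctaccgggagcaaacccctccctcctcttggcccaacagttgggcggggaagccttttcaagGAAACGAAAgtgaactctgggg
Eif2ak2 (chr17:78882523-78882672, minus strand): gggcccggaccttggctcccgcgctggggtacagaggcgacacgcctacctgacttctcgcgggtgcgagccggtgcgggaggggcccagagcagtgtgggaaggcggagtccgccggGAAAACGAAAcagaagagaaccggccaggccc
Mavs (chr2:131233963-131234112, plus strand): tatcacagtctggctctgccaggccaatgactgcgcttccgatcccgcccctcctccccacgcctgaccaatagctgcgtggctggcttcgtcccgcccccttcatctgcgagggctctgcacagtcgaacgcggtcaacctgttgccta

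Counting the start base as 1, the match of Ifih1 lay at bases 33 to 42, that of Eif2ak2 at bases 19 to 28 and that of Adar at bases 29 to 37. Ddx58 held one match from 60 to 52 bases before its start and one, on the other strand, at bases 3 to 12. The 2 patterns shared no bases in these windows. A match describes letters and does not show that a factor bound there.

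The libraries held 33159858 to 46108687 counted reads, and the 7 genes had between 1289 and 19689 counts in every library, so counting error was small beside the spread between libraries. Macrophage markers were abundant in every library, with summed levels of 30867 to 37224 CPM (counts scaled to a common library size) after anti-MerTK and 28945 to 39271 CPM after anti-gp120, and 0 of the 10 passed the test. Mertk averaged 78.9 ± 4.96 CPM after anti-MerTK and 91.1 ± 14.3 CPM after anti-gp120 (SD, n = 5 each, log2 fold change -0.21, edgeR adjusted p = 0.263). These are transcript levels and say nothing of the receptor protein. Markers of monocytes summed to 935 to 1389 CPM after anti-MerTK and 459 to 631 CPM after anti-gp120, with 3 of 10 higher (Plac8, Ifitm6 and Ms4a4c) and most of the sum from Ms4a4c (729.5 ± 133 and 329 ± 69.8 CPM). The T cell marker Cd3e (0.0846 and 0.0784 CPM) and Siglech of plasmacytoid dendritic cells (0.0111 and 0.00541 CPM) were near 0 in the means after anti-MerTK and after anti-gp120, given in that order. Markers of plasmacytoid dendritic cells summed to 694 to 891 CPM after anti-MerTK and 452 to 623 CPM after anti-gp120, with Bst2 and Cox6a2 higher and most of the sum from Bst2 (743 ± 74.8 and 473 ± 61.8 CPM), which macrophages also express under interferon. Summed markers of the other 7 cell types were at most 119 CPM after anti-MerTK and 131 CPM after anti-gp120, and 1 of them (Cdh1) passed, lower after anti-MerTK. The part of these cells in the results below was not tested, and in bulk RNA more cells of a type and more RNA per cell cannot be told apart.

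After anti-MerTK, transcripts of 5 of the 7 genes were raised and none lowered. The test was edgeR's quasi-likelihood fit, and a call needed a p under 0.05 after Benjamini-Hochberg adjustment over all 13588 genes. Of all tested genes, 3.22% were called in the same fit, 1.85% higher and 1.38% lower. The genes that rose were Ddx58, Ifih1, Dhx58, Zbp1 and Adar, by 1.47-fold to 1.95-fold. Eif2ak2 had an estimate of 1.42-fold that did not pass, and the adaptor gene Mavs had 1.04-fold. The median log2 fold change was 0.72 over the 7 genes and -0.01 over all tested genes. No member was lower at an unadjusted p under 0.05, which 20.9% of all tested genes had in one direction or the other. With DESeq2 or limma-voom 0 members were called lower, where 560 and 510 of the 13588 genes were, in that order. A count of 0 of 7 lies near those last 2 shares. The groups did not overlap for 4 of the 7 genes (Ddx58, Ifih1, Dhx58 and Zbp1), where 3.26% of all tested genes were separated in that direction and 5.97% in either.

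**Figure D1:**
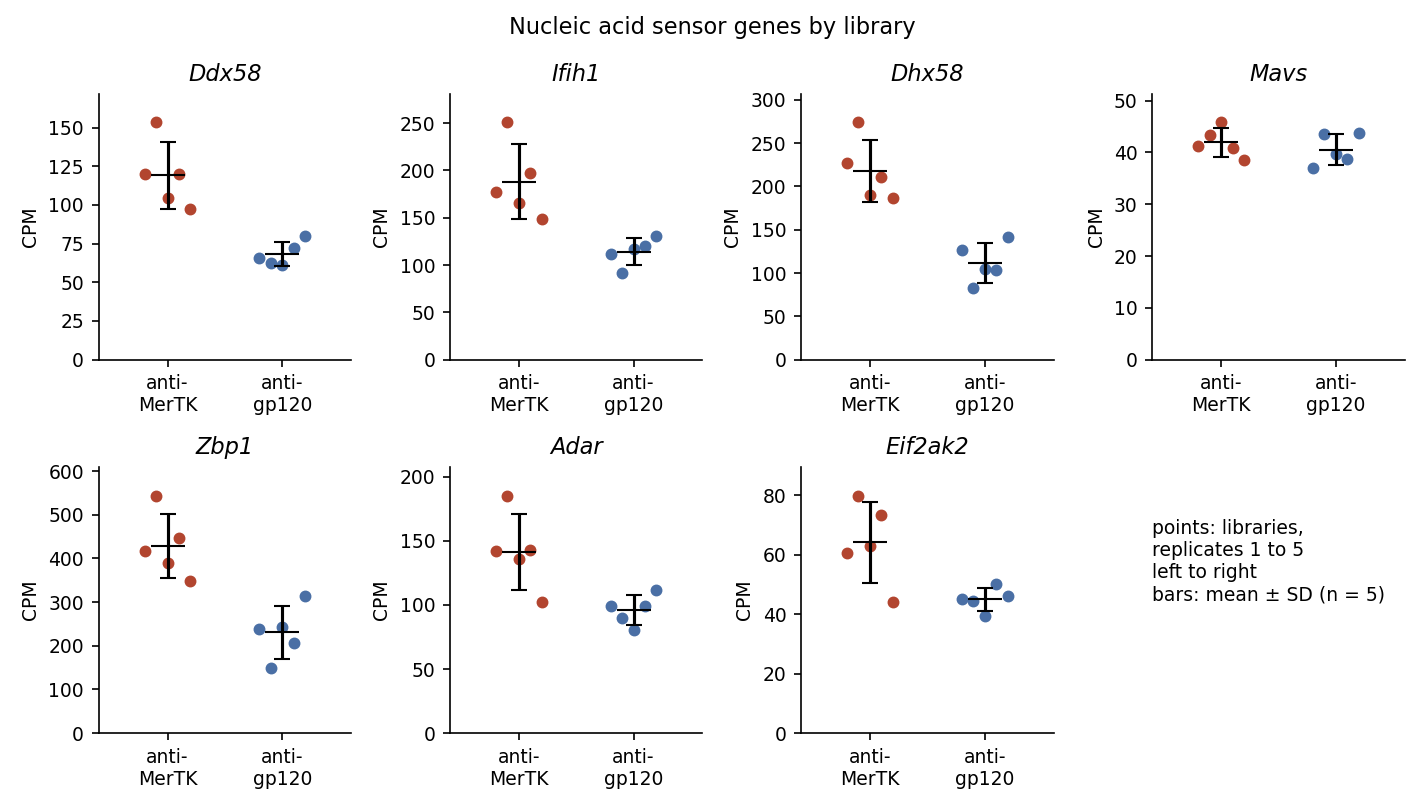
CPM of the 7 genes in each library, one panel per gene, with anti-MerTK on the left and anti-gp120 on the right. Points are libraries in replicate order, and bars are mean ± SD of 5 libraries. Ddx58, Ifih1, Dhx58 and Zbp1 separate the groups, Adar and Eif2ak2 overlap through anti-MerTK replicate 5, and Mavs lies between 37.0 and 45.9 CPM throughout.

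Among the RIG-I-like receptors, Ddx58 (Entrez 230073, GRCm38 chromosome 4, 40203777 to 40239825, minus strand) had 120.1, 154, 105, 120.2 and 97.1 CPM in anti-MerTK replicates 1 to 5, against 65.9, 62.6, 60.9, 72.2 and 79.6 CPM in anti-gp120 replicates 1 to 5. Every anti-MerTK library lay above every anti-gp120 library, the nearest being anti-MerTK replicate 5 and anti-gp120 replicate 5. Its means were 119 ± 21.7 CPM after anti-MerTK and 68.2 ± 7.69 CPM after anti-gp120 (SD, n = 5 each), a log2 fold change of 0.80 (SE 0.12, edgeR adjusted p = 0.0103). By p-value Ddx58 ranked 20 among the 13588 tested genes, the foremost of the 7.

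Ifih1 (Entrez 71586, chromosome 2, 62595618 to 62646255, minus strand) had 177, 251, 166, 197 and 149 CPM in the anti-MerTK libraries, against 111, 91.8, 117, 119.7 and 131 CPM in the anti-gp120 libraries. The groups were again separate, with anti-MerTK replicate 2 standing highest. The MDA5 transcript averaged 188 ± 39.4 CPM after anti-MerTK and 114 ± 14.3 CPM after anti-gp120 (SD, n = 5 each), a log2 fold change of 0.72 (SE 0.14, edgeR adjusted p = 0.0207). Ifih1 passed in 9 of the 10 fits with 1 library left out and had an adjusted p = 0.0593 without anti-gp120 replicate 4, where the log2 fold change was 0.74.

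Dhx58, the gene of LGP2 (Entrez 80861, chromosome 11, 100694884 to 100704271, minus strand), had 227, 274, 190.3, 211 and 186 CPM in the anti-MerTK libraries, against 127, 83.0, 105, 103 and 142 CPM in the anti-gp120 libraries. This was the largest estimate among the 7 genes in the fit of all 10 libraries, and the lowest anti-MerTK library, replicate 5, stood clear of the highest anti-gp120 library, also replicate 5. The means were 218 ± 35.6 CPM after anti-MerTK and 112 ± 22.8 CPM after anti-gp120 (SD, n = 5 each), a log2 fold change of 0.96 (SE 0.15, edgeR adjusted p = 0.0114). Ddx58 and Dhx58 passed in all 10 fits with 1 library left out, with adjusted p of at most 0.0419 for Ddx58 and 0.0440 for Dhx58. An antisense gene, Dhx58os, overlaps 2637 bases of the Dhx58 span on the other strand, and whether counting used strand is not given in the sources used here.

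Mavs, the adaptor that RIG-I and MDA5 share (Entrez 228607, chromosome 2, 131234063 to 131248025, plus strand), had 41.3, 43.4, 45.9, 40.9 and 38.5 CPM in the anti-MerTK libraries, against 37.0, 43.6, 39.6, 38.6 and 43.8 CPM in the anti-gp120 libraries. The groups overlapped throughout and neither stood apart. Mavs averaged 42.0 ± 2.78 CPM after anti-MerTK and 40.5 ± 3.05 CPM after anti-gp120 (SD, n = 5 each), a log2 fold change of 0.05 (SE 0.07, edgeR adjusted p = 0.717). Its estimate plus and minus 2 SE ran from -0.09 to 0.19. Mavs was also the steadiest of the 7 genes, with an SD of 6.62% of its mean after anti-MerTK and 7.52% after anti-gp120, while the other genes had 8.70% to 26.0%.

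Zbp1, the Z-nucleic acid sensor (Entrez 58203, chromosome 2, 173206612 to 173218959, minus strand), had 417, 544, 389.8, 446 and 349 CPM in the anti-MerTK libraries, against 238, 150.1, 244, 207 and 315 CPM in the anti-gp120 libraries. The groups did not overlap, but anti-gp120 replicate 5 came close to anti-MerTK replicate 5. The means were 429 ± 73.5 CPM after anti-MerTK and 231 ± 60.0 CPM after anti-gp120 (SD, n = 5 each), a log2 fold change of 0.89 (SE 0.18, edgeR adjusted p = 0.0255). Zbp1 also passed with DESeq2 (adjusted p = 3.76e-05) and limma-voom (adjusted p = 0.00758). In edgeR its call held in 5 of the 10 fits with 1 library left out. The log2 fold change in those 10 fits ran from 0.77 to 1.03. Adjusted p values were 0.0635, 0.0547, 0.0575 and 0.0524 when anti-MerTK replicate 1, 2, 3 or 4 was absent, 0.0791 in the absence of anti-gp120 replicate 4, and 0.0604 without anti-MerTK replicates 2 and 5 together.

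Adar (Entrez 56417, chromosome 3, 89714469 to 89753455, plus strand) had 142, 185, 136, 143 and 102 CPM in the anti-MerTK libraries, against 99.5, 89.9, 80.6, 99.1 and 111 CPM in the anti-gp120 libraries. Anti-MerTK replicate 5 fell below anti-gp120 replicate 5, so the groups overlapped, and the other 4 anti-MerTK libraries lay above every anti-gp120 library. The means were 142 ± 29.7 CPM after anti-MerTK and 96.1 ± 11.5 CPM after anti-gp120 (SD, n = 5 each), a log2 fold change of 0.56 (SE 0.14, edgeR adjusted p = 0.0489). This call was at the edge of the threshold. The adjusted p was 0.107, 0.0808, 0.103 and 0.0828 without anti-MerTK replicates 1 to 4 in turn, 0.0630, 0.123, 0.0855 and 0.111 without anti-gp120 replicates 1 to 4 in turn, and 0.0548 without the low count filter. Adar is known to be transcribed from a constitutive and an interferon-inducible promoter, and gene counts pool their transcripts. Chrnb2 overlaps 7261 bases of its span on the other strand and held 19 to 40 counts per library, 0.643% of the Adar counts.

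Eif2ak2, the gene of PKR (Entrez 19106, chromosome 17, 78850504 to 78882572, minus strand), had 60.5, 79.9, 62.8, 73.4 and 44.1 CPM in the anti-MerTK libraries, against 45.1, 44.4, 39.3, 50.3 and 46.0 CPM in the anti-gp120 libraries. Anti-MerTK replicates 1 to 4 lay above every anti-gp120 library, and replicate 5 lay among them. The means were 64.1 ± 13.7 CPM after anti-MerTK and 45.0 ± 3.91 CPM after anti-gp120 (SD, n = 5 each), a log2 fold change of 0.51 (SE 0.14) that did not pass (edgeR adjusted p = 0.0657). It passed without anti-MerTK replicate 5 (log2 fold change 0.62, adjusted p = 0.00728), without anti-MerTK replicates 2 and 5 (adjusted p = 0.0188) and with DESeq2 (adjusted p = 0.00748). It also passed with limma-voom, 1 surrogate variable and upper quartile normalization (adjusted p = 0.0309, 0.0414 and 0.0493). These were all of its passes, 6 of the 20 alternatives. Of the 10 fits with 1 library left out it passed in 1, and the adjusted p in edgeR reached 0.143 in the others. Replicates 2 and 5 were its highest and lowest anti-MerTK libraries, so leaving them out narrowed the spread of that group. The processed pseudogene Gm6548 lies within the Eif2ak2 span on the same strand over 1165 bases and was counted separately, at 324 to 578 counts per library or 21.8% of the Eif2ak2 counts, so the level of Eif2ak2 depends on how reads there were assigned.

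**Figure D2:**
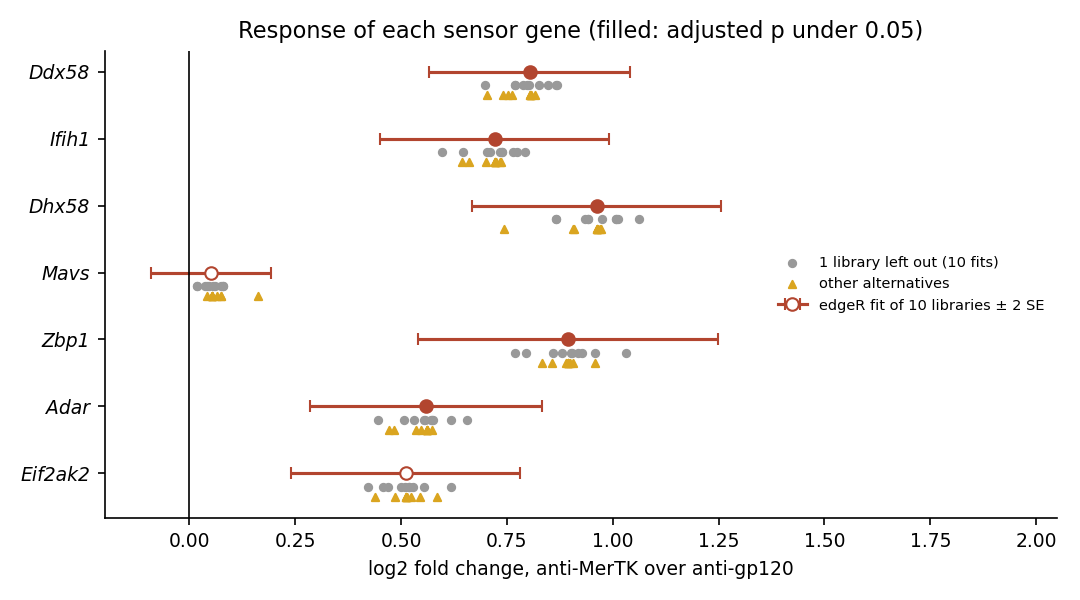
log2 fold change of each gene, anti-MerTK over anti-gp120, from the edgeR fit of 10 libraries (circles with bars of 2 SE, filled where the adjusted p is under 0.05), with the 10 fits that leave out 1 library (grey) and the other alternatives (triangles). Estimates for the 6 genes other than Mavs stay between 0.42 and 1.06 in every fit drawn, and those of Mavs between 0.02 and 0.16.

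The same anti-MerTK libraries stood highest and lowest for most of the 7 genes, while the order of the anti-gp120 libraries varied more from gene to gene. Anti-MerTK replicate 2 had the highest value of all 10 libraries for 6 of the 7 genes, which excludes Mavs, lying above the anti-gp120 mean by log2 differences of 1.18 for Ddx58, 1.15 for Ifih1, 1.32 for Dhx58, 1.28 for Zbp1, 0.96 for Adar and 0.83 for Eif2ak2, and by 0.10 for Mavs. Anti-MerTK replicate 5 was the lowest anti-MerTK library for all 7 genes. Its differences were still 0.52 for Ddx58, 0.39 for Ifih1, 0.76 for Dhx58 and 0.64 for Zbp1, but 0.09 for Adar and -0.03 for Eif2ak2. Among the anti-gp120 libraries, replicate 5 was highest for 6 of the 7 genes and replicate 4 for Eif2ak2. Monocyte markers summed to 1092, 1389, 935, 1111 and 967 CPM in anti-MerTK replicates 1 to 5, against 631, 459, 542, 588 and 491 CPM in anti-gp120 replicates 1 to 5. Replicate 2 was thus highest of the anti-MerTK libraries and replicate 3 lowest, and anti-gp120 replicate 5 was second lowest of its group. Fibroblast markers were highest in anti-MerTK replicate 5, at 41.5 CPM. Summed markers of conventional dendritic cells were highest of their groups in anti-MerTK replicate 2 (92.4 CPM) and anti-gp120 replicate 5 (64.1 CPM). Those of plasmacytoid dendritic cells, mostly Bst2, were also highest there (891 and 623 CPM). The lowest anti-MerTK libraries for these sums were replicate 3 (48.8 CPM) and replicate 1 (694 CPM), in that order, and not replicate 5. The part of these cells in the ranks was not tested.

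**Figure D3:**
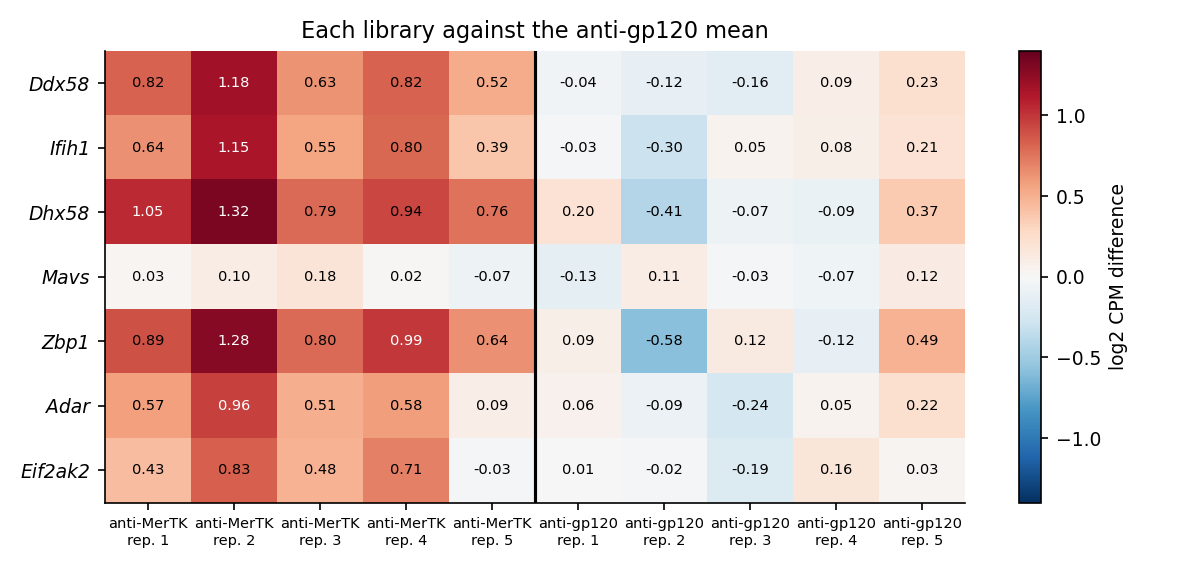
log2 CPM of each gene (rows) in each library (columns, anti-MerTK left of the line) minus the mean of the anti-gp120 libraries. Red is above and blue below that mean. Anti-MerTK replicate 2 is the strongest column, with 1.32 for Dhx58, and anti-MerTK replicate 5 is weak for Adar (0.09) and Eif2ak2 (-0.03).

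Whether the genes responded by different amounts was tested on the log2 difference between 2 genes within each library, which cancels library size. All 21 pairs were compared by a two-sided exact permutation test over all assignments of the libraries, whose smallest p is 0.00794, with Benjamini-Hochberg adjustment over the 21. The response differed for 7 pairs, and 5 of the 6 pairs with Mavs were among them. Relative to Mavs, Dhx58 shifted by a log2 difference of 0.92 (plus and minus 2 SE 0.56 to 1.28), Zbp1 by 0.87 (0.45 to 1.29), Ddx58 by 0.74 (0.48 to 1.003) and Ifih1 by 0.66 (0.34 to 0.97), each with an exact permutation p = 0.00794 and adjusted p = 0.0278. Adar shifted by 0.49 relative to Mavs (0.20 to 0.78, exact permutation adjusted p = 0.0476), and Eif2ak2 by 0.43 (0.14 to 0.73), which did not pass (exact permutation adjusted p = 0.0667).

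Within the other 15 pairs, 2 differed, both against Adar. The log2 CPM of Dhx58 minus that of Adar averaged 0.63 ± 0.15 in anti-MerTK libraries and 0.20 ± 0.22 in anti-gp120 libraries (SD, n = 5 each, difference 0.43, exact permutation adjusted p = 0.0278). For Ddx58 minus Adar it averaged -0.24 ± 0.11 in anti-MerTK libraries and -0.49 ± 0.07 in anti-gp120 libraries (SD, n = 5 each, difference 0.25, exact permutation adjusted p = 0.0278). CPM is not corrected for gene length, so only the shift between the groups is read here. The other 13 pairs did not pass. RIG-I against MDA5 differed in response by 0.09 (plus and minus 2 SE -0.05 to 0.22), LGP2 against ZBP1 by 0.05 (-0.11 to 0.21) and ADAR1 against PKR by 0.06 (-0.09 to 0.20). Without anti-MerTK replicates 2 and 5, 0 of the 21 pairs passed in the exact permutation test, where 56 assignments give a smallest p of 0.0179. At an unadjusted p under 0.05, 7 pairs passed there, and the smallest adjusted p was 0.0625.

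Levels between genes were compared on the authors' RPKM scale, which corrects for gene length. After anti-MerTK the order was Zbp1 at 195.9 ± 33.1 RPKM, Dhx58 at 90.7 ± 14.7, Ifih1 at 31.2 ± 6.47, Ddx58 at 24.2 ± 4.36, Adar at 22.3 ± 4.64, Eif2ak2 at 14.0 ± 2.97 and Mavs at 13.2 ± 0.876 (SD, n = 5). After anti-gp120 the order was Zbp1 at 105 ± 27.8 RPKM, Dhx58 at 46.5 ± 9.63, Ifih1 at 18.9 ± 2.48, Adar at 15.1 ± 1.82, Ddx58 at 13.8 ± 1.59, Mavs at 12.7 ± 0.907 and Eif2ak2 at 9.84 ± 0.856 (SD, n = 5). Zbp1 stood 2.16 times above Dhx58 after anti-MerTK and 2.26 times after anti-gp120, and Dhx58 stood 2.90 times above Ifih1 after anti-MerTK and 2.46 times after anti-gp120. These steps were separated by range in both groups. The steps below overlapped in range, other than Mavs over Eif2ak2 after anti-gp120, which held in 5 of 5 libraries. After anti-MerTK, Ifih1 was above Ddx58 in 5 of 5 libraries, Ddx58 above Adar in 4 of 5 and Eif2ak2 above Mavs in 3 of 5. After anti-gp120, Adar was above Ddx58 in 5 of 5 libraries and Ddx58 above Mavs in 3 of 5.

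Set against the adaptor within each library, the RPKM ratio of Ddx58 to Mavs was 1.83 ± 0.309 in anti-MerTK libraries and 1.09 ± 0.123 in anti-gp120 libraries (SD, n = 5 each). That of Ifih1 was 2.36 ± 0.455 and 1.49 ± 0.216, and that of Dhx58 6.87 ± 1.06 and 3.67 ± 0.790, after anti-MerTK and after anti-gp120. For these 3 helicases the ratios of the groups did not overlap. They are transcript ratios and say nothing of protein amounts.

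**Figure D4:**
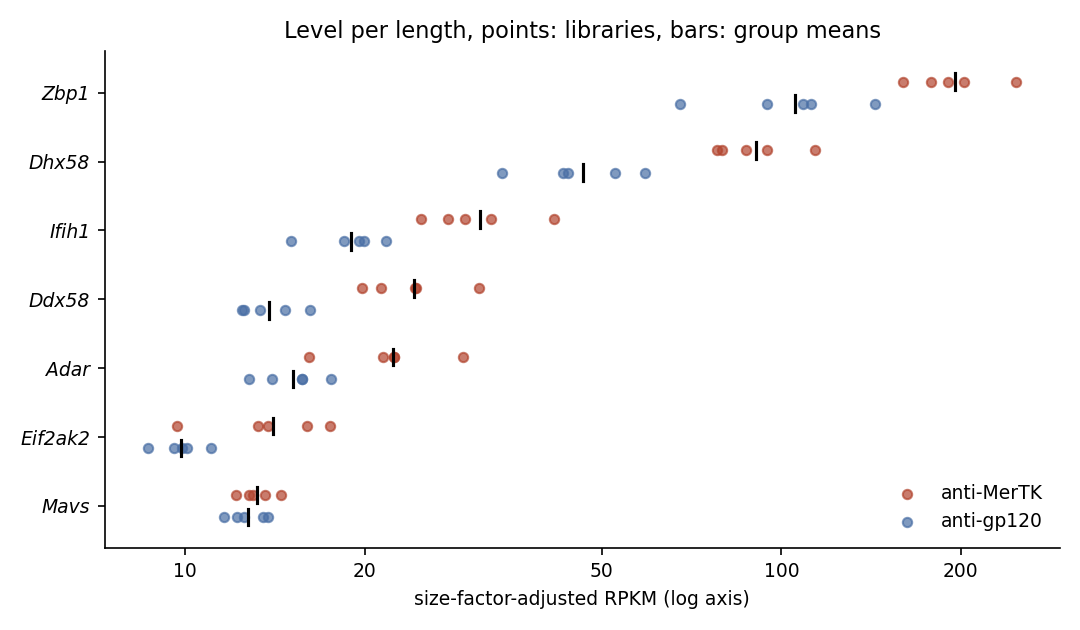
Size-factor-adjusted RPKM of the 7 genes on a log axis, with a point per library and a bar at each group mean, anti-MerTK above anti-gp120 for each gene. Zbp1 and Dhx58 lie above the rest in both groups, and 5 genes lie between 8.67 and 41.6 RPKM.

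Genes whose levels followed each sensor most closely were sought over the 10 libraries after each group's mean was subtracted, by Pearson's r among all named tested genes. The values are descriptions, since only the 2 highest genes are shown for each and libraries share their normalization. Ifih1 was most like Trim30a (r = 0.993) and Sp100 (r = 0.982), both interferon-induced genes, which had log2 fold changes of 0.60 and 0.69. Zbp1 was most like H2-T23, a non-classical class I molecule (r = 0.992), and Ifi27l2a (r = 0.989), and Dhx58 was most like Ifit1 and Oasl2 (both r = 0.983). Adar was most like Coro2a (r = 0.988) and Dop1b (r = 0.979), and Ddx58 was most like Pik3ap1 (r = 0.978), an adaptor of phosphoinositide 3-kinase, and Gdap10 (r = 0.974). For Eif2ak2 the nearest genes were Gm29679 (r = 0.971) and Sfi1 (r = 0.960), and for Mavs Gm9182 (r = 0.905) and Cdadc1 (r = 0.903). Of these 14 genes, 8 did not pass the test between the antibodies. They were the 4 nearest to Eif2ak2 and Mavs (edgeR adjusted p = 0.886, 0.853, 0.385 and 0.270, in the order named), Pik3ap1 (0.163), Gdap10 (0.927), H2-T23 (0.154) and Coro2a (0.0584).

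In the list of regulators and signalling partners of the RIG-I-like receptors, 4 of 25 tested genes were higher and 1 lower, with a median log2 fold change of 0.07. Beside this list and those below, the same fit called 1.85% of all tested genes higher and 1.38% lower. Irf7, the interferon regulatory factor that amplifies interferon transcription, rose to 1277 ± 293 CPM after anti-MerTK, against 531 ± 149.6 CPM after anti-gp120 (SD, n = 5 each, log2 fold change 1.27, SE 0.20, edgeR adjusted p = 0.0117). Ikbke, a kinase of the interferon factors, was 62.8 ± 15.8 CPM after anti-MerTK and 40.1 ± 2.66 CPM after anti-gp120 (log2 fold change 0.65, edgeR adjusted p = 0.0323). Cyld, a deubiquitinase that restrains RIG-I, fell to 65.6 ± 4.03 CPM after anti-MerTK, against 82.1 ± 4.60 CPM after anti-gp120 (log2 fold change -0.32, edgeR adjusted p = 0.0230). The other 2 higher genes, named after their values were seen, were Ifnb1, the gene of interferon beta, and Rnf135, a ubiquitin ligase of RIG-I. Their log2 fold changes were 1.29 and 0.52 (edgeR adjusted p = 0.0430 and 0.0467). Ifnb1 was at a low level, 2.11 ± 0.535 CPM after anti-MerTK and 0.865 ± 0.438 CPM after anti-gp120, and Rnf135 had 32.4 ± 4.60 and 22.6 ± 3.82 CPM (SD, n = 5 each).

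Some other genes of this list did not pass. The transcription factor gene Irf3 (37.4 ± 1.94 and 35.3 ± 1.58 CPM), the kinase gene Tbk1 (57.0 ± 2.49 and 56.8 ± 2.46 CPM) and the RIG-I ligase gene Trim25 (237 ± 14.4 and 226 ± 37.2 CPM), given after anti-MerTK and then after anti-gp120, had log2 fold changes of 0.08, 0.01 and 0.07 (edgeR adjusted p = 0.459, 0.969 and 0.731, named after their values were seen). Irf7 passed with each single library left out. Ikbke did not pass without anti-MerTK replicates 1 or 4 or anti-gp120 replicates 2, 3 or 4, with adjusted p up to 0.0892. Cyld did not pass without anti-MerTK replicates 1, 2 or 3 or anti-gp120 replicates 2 or 4, with adjusted p up to 0.0719. Ifnb1 passed only without anti-MerTK replicate 5 or anti-gp120 replicate 1, and Rnf135 only without one of these or anti-gp120 replicate 5, among the fits with 1 library left out.

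Of 10 other RNA helicases linked to RNA sensing, 1 was higher and 0 lower, with a median log2 fold change of -0.04. The higher gene was Ddx60, an interferon-induced helicase, at 37.8 ± 10.1 CPM after anti-MerTK and 22.4 ± 2.69 CPM after anti-gp120 (SD, n = 5 each, log2 fold change 0.76, SE 0.16, edgeR adjusted p = 0.0307). Neither Ddx3x nor Ddx41 passed, at log2 fold changes of -0.41 and 0.15 (edgeR adjusted p = 0.0769 and 0.187). Ddx60 did not pass without anti-MerTK replicates 1 or 4 or anti-gp120 replicates 2, 3 or 4 (adjusted p up to 0.0820), and Ddx3x passed without anti-gp120 replicate 5 (adjusted p = 0.0425).

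In the list of ZBP1 death signalling, 2 of 10 genes were higher and 0 lower, with a median log2 fold change of 0.14. Mlkl, the pore-forming effector of necroptosis, rose to 44.8 ± 3.73 CPM after anti-MerTK, against 30.8 ± 3.55 CPM after anti-gp120 (SD, n = 5 each, log2 fold change 0.54, edgeR adjusted p = 0.0115), and passed with each single library left out. Trim34a was 23.7 ± 4.21 CPM after anti-MerTK and 15.1 ± 1.86 CPM after anti-gp120 (log2 fold change 0.65, edgeR adjusted p = 0.0206). Its close relatives may share reads with it, and it did not pass without anti-MerTK replicate 1 or anti-gp120 replicates 2 or 4 (adjusted p up to 0.0655). Ripk3 and Ripk1, the kinases between ZBP1 and MLKL (named after their values were seen), did not pass at log2 fold changes of 0.22 and -0.08 (edgeR adjusted p = 0.161 and 0.461). Casp6, a caspase, had a log2 fold change of -0.35 (edgeR adjusted p = 0.0828) and passed without anti-MerTK replicate 5 (adjusted p = 0.0142).

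Among eIF2 kinases and the stress response downstream of them, 0 of 13 genes were higher and 1 was lower. Eif2ak3, the eIF2 kinase PERK of the endoplasmic reticulum, fell to 21.6 ± 1.70 CPM after anti-MerTK, against 28.1 ± 2.32 CPM after anti-gp120 (SD, n = 5 each, log2 fold change -0.38, SE 0.08, edgeR adjusted p = 0.0266). It did not pass without anti-MerTK replicates 1, 2, 3 or 4 or anti-gp120 replicates 2 or 4 (adjusted p up to 0.0795). Ddit3, the stress factor CHOP, and Dnajc3, an inhibitor of eIF2 kinases, missed the threshold at log2 fold changes of 0.36 and -0.27 (edgeR adjusted p = 0.0935 and 0.104), though Ddit3 passed without anti-gp120 replicate 5 (adjusted p = 0.0280). Of all 13 genes, 5 had an unadjusted p under 0.05, and 3 were called by DESeq2 and 1 by limma-voom. Over all tested genes, 20.9% had an unadjusted p under 0.05 in edgeR, 8.54% were called by DESeq2 and 7.62% by limma-voom.

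Among 9 tested genes of double-stranded RNA binding and editing, 0 passed in edgeR. Of them 1 had an unadjusted p under 0.05, against the 20.9% of all tested genes, and 0 were called by DESeq2 or limma-voom. Dicer1 and Stau1 had log2 fold changes of -0.32 and 0.07. Adarb1, the relative of Adar that encodes ADAR2, was barely detected at 0.531 CPM after anti-MerTK and 0.399 CPM after anti-gp120 (named after its values were seen).

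Among 12 enzymes that limit endogenous nucleic acid ligands, 1 was higher and 0 lower, with a median log2 fold change of 0.13. This was Pnpt1, which degrades RNA in mitochondria, at 46.1 ± 3.77 CPM after anti-MerTK and 35.1 ± 2.57 CPM after anti-gp120 (SD, n = 5 each, log2 fold change 0.39, SE 0.07, edgeR adjusted p = 0.0207). Its call was lost when anti-gp120 replicate 2 or 4 was absent (adjusted p = 0.0554 and 0.0655). Morc3 and the DNA exonuclease gene Trex1 also missed it, at log2 fold changes of 0.38 and 0.70 (edgeR adjusted p = 0.0583 and 0.0659). Morc3 passed without anti-MerTK replicate 5 (adjusted p = 0.0250) and Trex1 without anti-gp120 replicate 5 (adjusted p = 0.0157).

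The endosomal route to RNA sensing had 0 of 7 genes past the threshold in edgeR. Of these 2 had an unadjusted p under 0.05 and 1 was called by limma-voom, next to 20.9% and 7.62% of all tested genes, and 0 were called by DESeq2. Tlr3, the endosomal receptor for double-stranded RNA, was 72.4 ± 10.3 CPM after anti-MerTK and 59.8 ± 4.44 CPM after anti-gp120, and Tlr7, a receptor for single-stranded RNA, was 174 ± 23.8 and 155 ± 7.98 CPM (SD, n = 5 each). Their log2 fold changes were 0.28 and 0.16, and that of the adaptor gene Myd88 was 0.29 (edgeR adjusted p = 0.119, 0.315 and 0.118).

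In the list of the type I interferon receptor and its transcription complex, 2 of 9 genes were higher and 0 lower, with a median log2 fold change of 0.23. Usp18, a feedback inhibitor of the receptor, rose to 258 ± 63.8 CPM after anti-MerTK, against 104 ± 25.0 CPM after anti-gp120 (SD, n = 5 each, log2 fold change 1.31, edgeR adjusted p = 0.0114), and passed with each single library left out. Stat2 was 125 ± 52.1 CPM after anti-MerTK and 54.6 ± 10.98 CPM after anti-gp120 (log2 fold change 1.19, SE 0.27, edgeR adjusted p = 0.0452), with overlapping groups. Among the fits with 1 library left out it passed only without anti-MerTK replicate 5 or anti-gp120 replicate 5. Irf9 had 137 ± 10.1 and 110.4 ± 10.9 CPM after anti-MerTK and after anti-gp120 (log2 fold change 0.31, edgeR adjusted p = 0.0541) and passed without either of those libraries (adjusted p = 0.0459 and 0.0381).

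**Figure D5:**
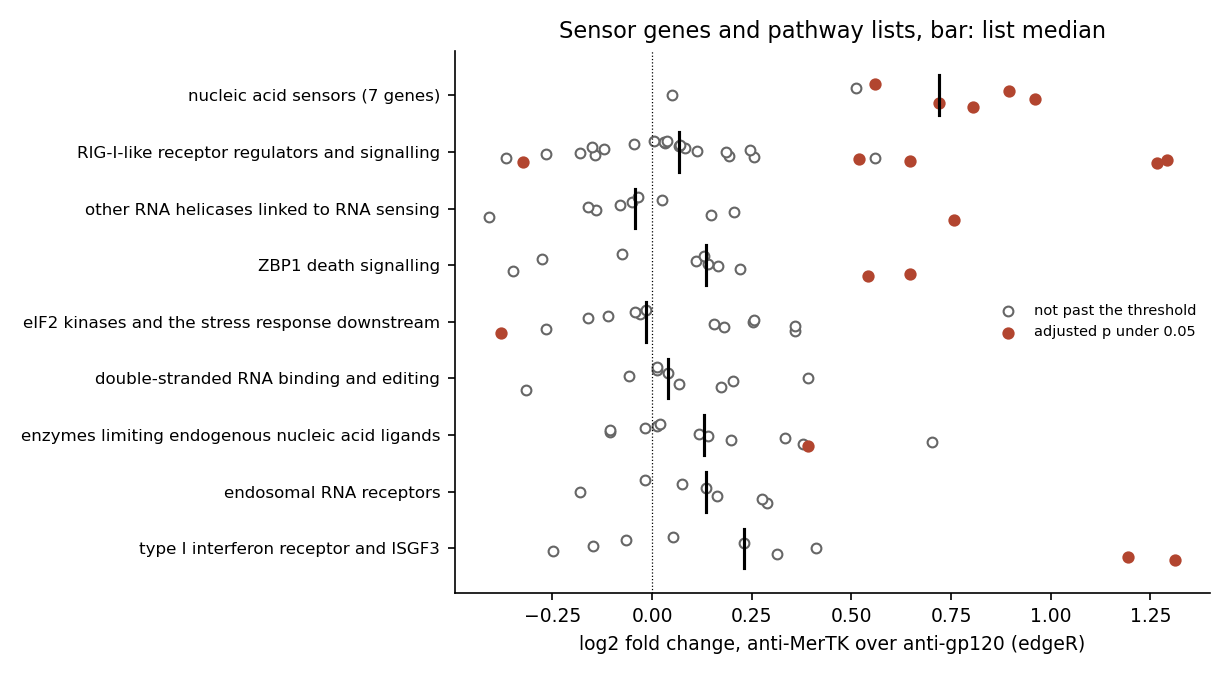
log2 fold change, anti-MerTK over anti-gp120, of the 7 sensor genes (top row) and of each tested gene of 8 pathway lists. Filled points passed the edgeR test, and bars mark list medians. The median is 0.72 for the sensor genes and between -0.04 and 0.23 for the lists.

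With the mean log2 CPM of the 10 monocyte markers as a covariate, 0 of the 7 genes passed in edgeR (adjusted p from 0.665 to 0.778), and 5 had an unadjusted p under 0.05. Of all 13588 genes tested with this covariate, 0 passed and 974 had an unadjusted p under 0.05. All 7 estimates stayed positive, with log2 fold changes of 0.74 for Dhx58, 0.89 for Zbp1, 0.70 for Ddx58, 0.74 for Ifih1, 0.47 for Adar, 0.58 for Eif2ak2 and 0.16 for Mavs. The score averaged 3.28 after anti-MerTK and 2.33 after anti-gp120, so it moved with the antibody, and its part in the lost calls was not tested. With the covariate the estimates were lower for Dhx58, Ddx58 and Adar, 0.89 in both fits for Zbp1, and higher for Ifih1, Eif2ak2 and Mavs. Without anti-MerTK replicates 2 and 5, the highest and lowest of their group for most of the 7 genes, 5 of the 7 genes passed, with Eif2ak2 among them and Zbp1 not. Over all genes, 204 of 13868 tested were called in that fit. Leaving out the extremes of a group narrows its spread for these same genes, so the calls there are no independent support.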

How the data were processed

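Polyadenylated RNA of purified tumour-associated macrophages was sequenced in 10 libraries, 5 per antibody. Per the file headers, the deposited count is the number of uniquely aligning reads per gene model, and the deposited RPKM carries a size factor applied by the authors. The submitters' processing notes name GSNAP and GRCm38, and neither versions nor strand use is given in the sources used here. The libraries held 33159858 to 46108687 counts. Symbols were found for 31049 of the 36528 Entrez identifiers, and the 5479 others held 2.14 to 2.66% of counts. No 2 libraries agreed within sampling noise (smallest chi-square per degree of freedom 29.2).

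The counts of 13588 genes that passed edgeR's low count filter were fitted with TMM normalization and the quasi-likelihood test (edgeR 4.0.16, R 4.3.3), with Benjamini-Hochberg adjustment over all of them and a threshold of 0.05. The common dispersion had a square root of 0.159. CPM values and log2 CPM (prior count 2) came from the same fit, and pairs of genes were compared by exact permutation tests (Python 3.11.15, numpy 2.4.6). Alternatives used DESeq2 1.42.0, limma 3.58.1, sva 3.50.0, other size factors and filters, a monocyte marker score and the removal of libraries. The edgeR fit and the permutation test were each tested on simulated data.

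The members, lists and tests were chosen with earlier results of these data known. The rule for named genes takes the 7 members, Mertk, the 3 genes of smallest p in each of 8 pathway lists and the 2 genes most like each member. Cell type markers and genes said to be chosen after their values were seen fall outside it. Some genes that this rule names are not reported here. Promoter sequences and gene positions come from RefSeq, GRCm38.p6, and overlapping genes from GENCODE M21.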

Additional observations from a re-analysis of the deposited data

How the results depend on the processing

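No member reversed its direction in the 20 alternatives run. Over the 7 genes and those alternatives, 113 results kept their side of the threshold, 21 lost it and 6 gained it. Against 438 genes called by edgeR over all tested genes, the totals were 1160 with DESeq2, 1036 with limma-voom, 204 without anti-MerTK replicates 2 and 5, and 70 to 654 with 1 library left out. With the monocyte marker score as a covariate, edgeR called 0 genes, 0 members and 0 pathway genes (974 genes at an unadjusted p under 0.05). The score correlated with the antibody (r = 0.80 over 10 libraries). The 5 members called became 2 to 6 with 1 library left out, fewest without anti-gp120 replicate 4. The 12 pathway genes called, of 95 tested, became 20 with DESeq2 and 3 to 17 with 1 library left out. The 7 pairs that differed became 5 to 11 with 1 library left out, and 0 without anti-MerTK replicates 2 and 5, where fewer assignments exist. For the other changes the cause was not tested. No paired analysis was possible because the labels give no replicate numbers, and the numbers used here follow the order of the samples. Depth limited none of the 7 genes, whose lowest count was 1289.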
